A study of Mus musculus with 2 samples.

Results

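Transcripts of 9 hepatocyte transporters of bile acids, organic anions and, for Abcb4, phosphatidylcholine were followed in mouse liver sections by spatial transcriptomics. The 9 genes were chosen by their known function and with their levels in these data known, as the rows of the count tables that carry their symbols, and all 9 were found among 32285 genes. They comprised 5 uptake genes (Slco1a1, Slco1a4, Slco1b2, Slco2b1 and Slc10a1) and 4 export genes (Abcb11, Abcc2, Abcb4 and Abcc3). Because their levels were known when they were selected, every difference between the diets given here is a description without a test.

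The study compared 1 liver section from the NCD group with 1 from the HFD group. Both came from male C57BL/6J mice that were obtained at 5 weeks of age and acclimated for 1 week. The NCD mouse then ate normal chow and the HFD mouse a diet with 60% fat for 14 weeks, after which both received distilled water by mouth for 8 weeks. Livers were perfused, embedded without fixation and cut at 10 µm onto Visium slides, on which each spot captures the polyadenylated RNA of several neighbouring cells at its 3′ end and counts molecules by unique molecular identifiers (UMIs). With 1 section of each diet there was no replicate, so diet, animal, section and slide cannot be told apart, and every interval given here covers counting error only, at 95%.

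A hepatocyte takes up bile acids and other organic anions from sinusoidal blood across its basolateral membrane and secretes them into the bile canaliculus across its apical membrane. Slc10a1 encodes NTCP, the sodium-dependent carrier of conjugated bile acids. The Slco genes encode sodium-independent organic anion transporting polypeptides (OATPs), which carry bile acids, bilirubin, steroid conjugates and many drugs. Abcb11 encodes the bile salt export pump, Abcc2 encodes MRP2, which exports bilirubin glucuronides and glutathione conjugates, and Abcb4 encodes MDR2, which moves phosphatidylcholine into bile. Abcc3 encodes MRP3, which returns organic anions to blood across the basolateral membrane. Blood flows through the lobule from the portal triad to the central vein, so that periportal hepatocytes meet portal bile acids before pericentral ones.

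The NCD section held 3692 spots over tissue with 29037988 UMIs and a median of 4188 per spot, and the HFD section 3594 spots with 72118803 UMIs and a median of 18549. The sections shared 3173 barcodes, which are positions of the same slide layout and not shared cells. Levels were given as UMIs per 1000000 UMIs (CPM) of the pooled section, and were compared between sections or positions for the same gene. Shares of a sum and ratios between genes are in UMIs, which also depend on how well each transcript is captured, so they are given to compare sections and positions and not to rank genes. The tags of the samples named immune and hematopoietic stem cells, whereas 8 hepatocyte markers summed to 119793 (NCD) and 137523 CPM (HFD). A list of 6 hematopoietic stem cell markers summed to 6.13 and 9.11 CPM.

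Markers of other cells differed between the sections. From the NCD to the HFD section the summed CPM went from 51.0 to 217 for 8 cholangiocyte markers (85.3% and 86.2% of it Spp1, which macrophages can also express), from 249 to 487 for 7 stellate cell markers, from 163 to 230 for 8 endothelial markers and from 282 to 579 for 6 lipid-associated macrophage markers (86.6% and 78.8% of it Ctsd, a lysosomal protease of many cells). It went from 205 to 207 for 6 Kupffer cell markers and from 6676 to 1246 for 4 red blood cell genes. By a 1.5-fold line, all 5 cholangiocyte markers, 4 of 7 stellate cell, 4 of 8 endothelial and 6 of 6 macrophage markers with at least 200 UMIs were higher in the HFD section, the Kupffer list split into 3 lower and 1 higher of 6, and all 4 red blood cell genes were lower. Over all 10665 genes with at least 200 UMIs in both sections together, 23.9% were higher and 4.56% lower by this line. The median gene was itself higher in the HFD section, by 0.23 on the log2 scale, and the marker sums above include that shift. None of the markers on these 6 lists was at 0 in either section. Spots mix cells, so fewer hepatocytes in a spot and less RNA per hepatocyte cannot be told apart in any value below, and the part of these lists in the transporter values was not tested.

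The mouse Slco1 genes lie side by side on chromosome 6 of mm10, with Slco1b2 at chr6:141629518-141686646 on the plus strand, Slco1a4 at chr6:141805440-141856199 and Slco1a1 at chr6:141907282-141946962, both on the minus strand. Slco2b1 lies at chr7:99657804-99711340, Slc10a1 at chr12:80953183-80968705, Abcb11 at chr2:69238282-69342616 and Abcc3 at chr11:94343295-94392997, all on the minus strand. Abcc2 at chr19:43782192-43840740 and Abcb4 at chr5:8893717-8959231 lie on the plus strand. The Slco1a genes are close paralogs, so reads that match several of them could be lost or misplaced. Their neighbours Slco1a5 and Slco1a6 counted 0 UMIs each in the NCD section and 1 and 4 in the HFD section.

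Proximal promoters of the members were read from RefSeq for GRCm38.p6, from 250 bases before to 50 bases after each start, for 11 starts of 8 members. The promoters of Abcb11 and Slco1b2 are printed because they hold an inverted repeat, AGGTCA then 1 base then TGACCT, the arrangement bound by the bile acid receptor FXR with its partner RXR. The promoter of Slco1a1 is printed because it differed most of the 9 between the sections. Capitals mark the inverted repeat with at most 2 mismatches and, in Slco1b2 further upstream, the STAT5 motif (TTC, any 3 bases, GAA), both searched on both strands.
Abcb11 (chr2:69342567-69342866, minus strand): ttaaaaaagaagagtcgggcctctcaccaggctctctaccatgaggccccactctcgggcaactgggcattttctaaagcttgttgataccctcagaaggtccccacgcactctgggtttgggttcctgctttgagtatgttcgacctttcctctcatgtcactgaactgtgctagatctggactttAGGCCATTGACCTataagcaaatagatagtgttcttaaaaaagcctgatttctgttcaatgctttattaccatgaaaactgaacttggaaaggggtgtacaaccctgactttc
Slco1b2 (chr6:141629268-141629567, plus strand): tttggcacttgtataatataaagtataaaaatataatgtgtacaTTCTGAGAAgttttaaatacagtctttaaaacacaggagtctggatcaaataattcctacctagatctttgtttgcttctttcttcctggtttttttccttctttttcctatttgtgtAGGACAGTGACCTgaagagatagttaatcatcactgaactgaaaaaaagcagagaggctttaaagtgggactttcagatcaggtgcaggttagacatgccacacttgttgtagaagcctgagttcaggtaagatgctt
Slco1a1 (chr6:141946913-141947212, minus strand): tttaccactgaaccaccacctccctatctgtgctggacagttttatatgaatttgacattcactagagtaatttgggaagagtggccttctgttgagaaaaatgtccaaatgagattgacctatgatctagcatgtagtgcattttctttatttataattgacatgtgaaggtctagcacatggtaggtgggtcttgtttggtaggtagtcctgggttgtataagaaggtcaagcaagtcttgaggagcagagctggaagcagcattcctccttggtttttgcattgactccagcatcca

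The inverted repeat had 1 mismatch in each, with its first base at position -63 from the start in Abcb11 and at -88 in Slco1b2. It was found in 2 of the 11 starts, against 1.14% of 32851 mouse promoters of the same length. The STAT5 motif was found in 4 of the 11 starts, in Slco1b2, in 2 starts of Slco2b1 and in Slc10a1, against 8.30% of all promoters. These are matches of letters in short windows, and binding was not measured.

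Among the uptake genes, Slco1a1 transcripts were nearly missing from the HFD section, Slco1a4 and Slc10a1 were lower there, and Slco2b1 was higher. Among the export genes, Abcb11 was higher in the HFD section and Abcc2 stood at the same CPM in both. Slco1b2, Abcb4 and Abcc3 were higher in CPM by less than the shift of the median gene. That shift was 0.23 on the log2 scale over 10665 genes with at least 200 UMIs in both sections together, so CPM ratios are also given relative to it.

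Slco1a1, an OATP that in mice is far more abundant in male than in female liver, had 3714 UMIs in the NCD section, 128 CPM (interval 124 to 132), spread over 1586 spots with up to 13 UMIs in a spot. The HFD section held 14 UMIs of it, 0.194 CPM (0.106 to 0.326), in 14 spots with 1 UMI each. The log2 ratio of HFD to NCD was -9.36 (-10.24 to -8.62), a 659-fold lower level (392- to 1206-fold), or -9.60 relative to the median gene. It was -8.27 when CPM was averaged over spots, beyond the counting interval. The ratio ranked 2 from the lowest of the 10665 genes. After spots were drawn down to 3000 UMIs, 30.3% of 2107 NCD spots and 2 of 3538 HFD spots, 0.0565% (0.00685% to 0.204%), held a Slco1a1 UMI. Drawing down left out 1585 shallower NCD spots and 56 HFD spots, and the undrawn shares were 43.0% and 0.390%. No cell type that lacks Slco1a1 can be set apart in spots, and the nearest measure of free RNA, spots off the tissue, held 136 CPM on the NCD slide and 0 UMIs on the HFD slide, which allows up to 1.38 CPM there.

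Slco1a4, an OATP that carries digoxin and bile acids, measured 108 CPM (104 to 112) with NCD against 50.4 CPM (48.8 to 52.1) with HFD. It was 2.14-fold lower, with a log2 ratio of -1.10 (-1.17 to -1.03), or -1.33 relative to the median gene. Slc10a1 measured 564 CPM (555 to 572) against 389 CPM (384 to 394), so its log2 ratio was -0.54 (-0.56 to -0.51). At 1.45-fold lower it lay just outside the 1.5-fold line used for counting, but relative to the median gene it was 1.71-fold lower (-0.77) and inside it.

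Slco1b2, the mouse counterpart of human OATP1B1 and OATP1B3, went from 749 CPM (739 to 759) up to 845 (838 to 851), with a log2 ratio of 0.17 that turned to -0.06 relative to the median gene. Slco2b1, an OATP expressed well beyond the liver, went from 59.5 CPM (56.7 to 62.3) up to 87.2 (85.0 to 89.4), with a log2 ratio of 0.55 (0.47 to 0.63) and 0.32 relative to the median gene. At 1.47-fold it lay just outside the 1.5-fold line.

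Abcb11 was at 106 CPM (103 to 110) with NCD and at 164 (161 to 167) with HFD. Its log2 ratio of 0.62 (0.57 to 0.68) was 1.54-fold, just inside the line, and 1.31-fold (0.39) relative to the median gene. Abcc2 stood at 125 (121 to 129) and 124 CPM (121 to 126), giving a ratio on the log2 scale of -0.01 (-0.07 to 0.05) and -0.24 relative to the median gene. Abcb4 went from 196 to 218 CPM and Abcc3 from 155 to 177 CPM, log2 ratios of 0.15 and 0.19 that turned to -0.08 and -0.04 relative to the median gene.

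**Figure D1:**
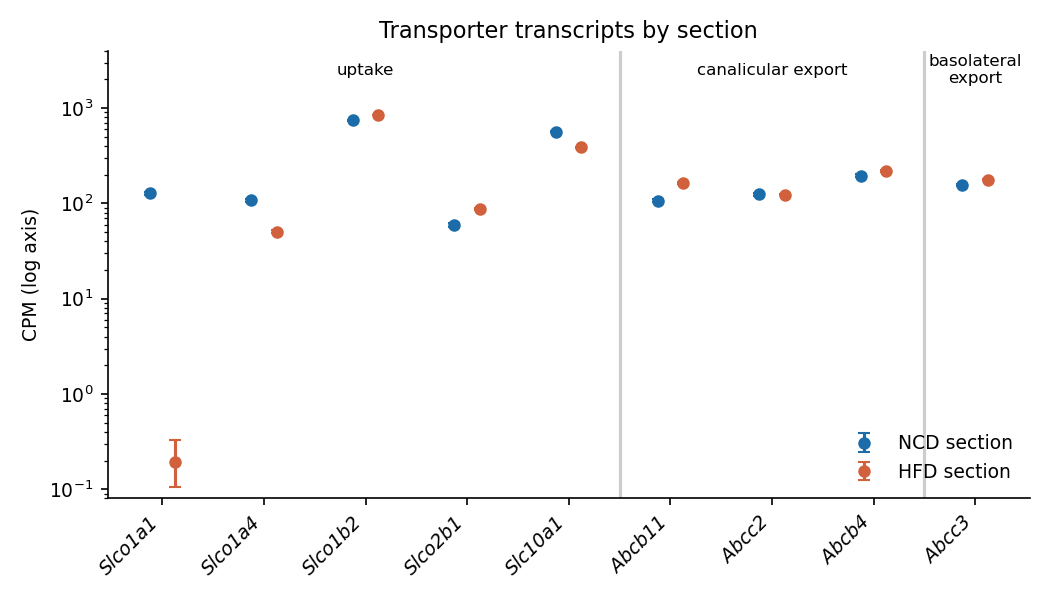
CPM of each transporter on a log axis in the NCD section (blue) and the HFD section (orange). Points are pooled levels and bars exact Poisson intervals at 95%, most of them smaller than the point. Slco1a1 lies at 128 and 0.194 CPM while the other 8 genes lie within 2.14-fold of each other between the sections; Slco1b2, Abcb4 and Abcc3, slightly higher in HFD here, are slightly lower relative to the median gene.

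At 1.5-fold in CPM, 2 of the 9 members, Slco1a1 and Slco1a4, were lower in the HFD section and 1, Abcb11, was higher, while 6 lay between. All 9 passed the minimum of 200 UMIs. Over the 10665 genes, 4.56% were lower and 23.9% higher by the same line. The median log2 ratio was 0.15 over the 9 members, -0.54 over the uptake genes and 0.17 over the export genes, beside 0.23 over all genes. Relative to the median gene, or per UMI of the hepatocyte markers, 3 members were lower, since Slc10a1 joined them at -0.77 or -0.73, and Abcb11 no longer reached the line. Of the 8 hepatocyte markers themselves, 2 were higher and 1 lower in the HFD section by this line, and their sum had a log2 ratio of 0.20.

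The summed uptake genes went from 1608 (1594 to 1623) to 1371 CPM (1363 to 1380), with a log2 ratio of -0.23, and the summed export genes from 583 (574 to 591) to 683 CPM (677 to 689), with a log2 ratio of 0.23 that became -0.00 relative to the median gene. The uptake ratio was -0.46 on that relative scale, and -0.02 when CPM was averaged over spots instead of pooled. The ratio of uptake to export UMIs does not depend on the total used for scaling. It was 2.76 (2.71 to 2.81) with NCD against 2.01 (1.99 to 2.03) with HFD, a log2 change of -0.46 (-0.49 to -0.43), or -0.25 with spots averaged.

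Slco1b2 carried much of the uptake sum, 46.6% of its UMIs with NCD against 61.6% with HFD. Slc10a1 gave 35.1% and 28.4%, and Slco1a1 went from 7.95% to 0.0142%. Abcb4, which moves phosphatidylcholine, gave 33.7% of the export sum with NCD and 31.9% with HFD. Uptake over export without Abcb4 was not computed. Without Slco1b2, uptake over export went from 1.47 to 0.771, a log2 change of -0.94 (-0.97 to -0.90). For the main bile acid carrier of each membrane, Slc10a1 over Abcb11, it went from 5.29 (5.09 to 5.50) to 2.37 (2.32 to 2.42), a log2 change of -1.16 (-1.22 to -1.10). Within export, Abcb4 over Abcb11 went from 1.84 to 1.33, and Abcc3 over Abcc2, the basolateral against the canalicular MRP, from 1.24 to 1.43.

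Lobule position was read from 8 pericentral landmarks (among them Glul, Cyp2e1 and Oat) and 10 periportal landmarks (among them Cyp2f2, Hal and Sds) in spots with at least 1000 UMIs. Spots were ranked by the pericentral share of landmark UMIs and divided into 5 equal parts within each section, from part 1 (most periportal) to part 5 (most pericentral). Each part held 570 or 571 NCD spots or 718 HFD spots. Depth did not follow position in the same way, since part 1 was the shallowest in the NCD section, with a median of 4097 UMIs per spot, and the deepest in the HFD section, with 27812.5. Gradients are therefore also given after every spot was drawn down to 3000 UMIs. They are in CPM and were not centred on a median gene. The summed hepatocyte markers were lower in part 5 than in part 1. They went from 144518 to 102722 CPM with NCD (log2 ratio -0.49) and from 154046 to 124341 CPM with HFD (-0.31). The part of the CPM total in the gradients was not tested.

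In the NCD section most transporters were higher towards the central vein, and the steepest was Slco1b2. It stood at 288, 451, 679, 924 and 1222 CPM from part 1 to part 5, with no overlap of neighbouring intervals, a log2 ratio of part 5 to part 1 of 2.08, or 4.24-fold. Slco1a1 stood at 76.6, 102, 122, 157 and 163 CPM, a log2 ratio of 1.09 (0.90 to 1.28), of which the levels of parts 4 and 5 overlapped. Abcc3 was at 98.8 CPM in part 1 and 211 in part 5 (1.09), Abcc2 at 85.9 and 156 (0.86) and Abcb4 at 152 and 249 (0.71).

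Other members differed less with position in the NCD section. Slco1a4 reached 119 CPM in part 4, with a log2 ratio of part 5 to part 1 of 0.34 (0.16 to 0.52). Slc10a1 stood at 492 CPM in part 1 and 586 in part 5 (0.25, 0.17 to 0.33), with its highest level, 607 CPM, in part 4. Both intervals were clear of 0. Abcb11 was at 94.7 CPM in part 1, 117 in part 3 and 104 in part 5 (0.13, -0.05 to 0.32), and Slco2b1 stayed between 56.6 and 62.5 CPM (-0.05, -0.29 to 0.20). In all, 5 of 9 members were at least 1.5-fold higher in part 5 than in part 1, where 11.7% of 6045 genes were, and 0 were as much higher in part 1, where 2.86% were.

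In the HFD section Slco1b2 was again higher in each part than in the one before, at 535, 740, 873, 1020 and 1251 CPM, but over a smaller range, with a log2 ratio of 1.22 (1.19 to 1.26). Abcb4 went from 166 CPM in part 1 to 279 in part 5 (0.75), Slco1a4 from 36.4 to 68.6 (0.92) and Abcc2 from 101 to 151 (0.59). Abcc3 went from 147 to 200 CPM (0.45, 0.37 to 0.52) and Slco2b1 from 74.3 to 101 (0.45, 0.34 to 0.56). Slc10a1 stood at 339, 350, 386, 423 and 479 CPM from part 1 to part 5 (0.50, 0.45 to 0.55), with the intervals of parts 1 and 2 overlapping. Abcb11 ran the other way, at 170 CPM in part 1 and 152 in part 5 (-0.17, -0.25 to -0.09), although with a second set of landmarks this log2 ratio was 0.03. The 14 Slco1a1 UMIs fell 0, 4, 4, 4 and 2 over the parts, so no gradient could be given, and in part 1 the NCD level of 76.6 CPM was at least 527-fold higher than the 0.145 CPM that 3 counts of 20658631 would give. Of the 8 members with a ratio, 4 were at least 1.5-fold higher in part 5, against 6.93% of 9924 genes, and 0 in part 1, against 4.34%. Abcc2 lay on the line itself.

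**Figure D2:**
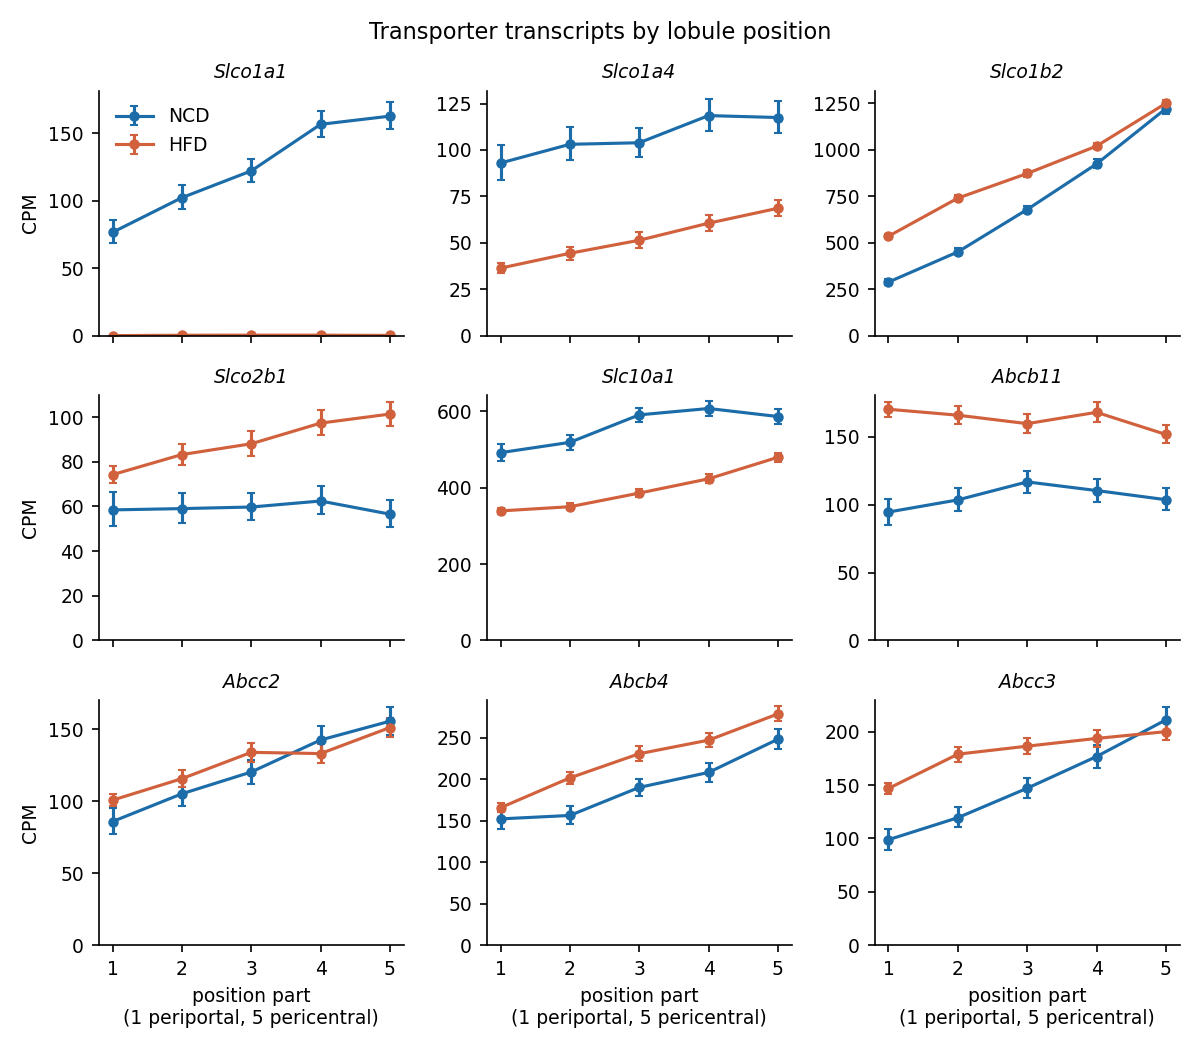
CPM of each transporter over 5 parts of the lobule, from periportal (1) to pericentral (5), in the NCD (blue) and HFD (orange) sections, with exact Poisson intervals at 95%. Each panel has its own axis from 0. Slco1b2 converges at the central vein, from 288 against 535 CPM in part 1 to 1222 against 1251 in part 5, while Slco1a1 lies at 0 or nearly so in every HFD part.

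The difference between the sections was not the same at all positions for some members. For Slco1b2 the log2 ratio of HFD to NCD was 0.89, 0.72, 0.36, 0.14 and 0.03 from part 1 to part 5, and for Abcc3 it was 0.57, 0.58, 0.34, 0.13 and -0.08. For Slco1a4 it was -1.35 in part 1 and -0.78 in part 5, and for Slco2b1 0.34 and 0.84. Slc10a1 was lower in the HFD section in all 5 parts, by -0.54, -0.57, -0.61, -0.52 and -0.29. Abcb11 was higher in all 5 parts, by 0.85, 0.68, 0.45, 0.61 and 0.55. These ratios are in CPM, and relative to the median gene of the whole sections (0.23) Slco1b2 and Abcc3 were higher in parts 1 to 3 and lower in parts 4 and 5.

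At equal depth, the gradients of Slco1b2 and Abcc3 were shallower in the HFD section beyond counting error. The difference of the log2 ratios of part 5 to part 1 was -0.87 (-1.06 to -0.68) for Slco1b2 and -0.67 (-1.04 to -0.31) for Abcc3. For Slc10a1 the gradient was steeper by 0.21 (0.01 to 0.42). For Slco1a4 the difference was 0.47 (-0.05 to 0.98), for Slco2b1 0.34 (-0.24 to 0.91), for Abcb11 -0.27 (-0.70 to 0.15), for Abcc2 -0.24 (-0.64 to 0.17) and for Abcb4 -0.14 (-0.46 to 0.18), so that none of these 5 stood clear of 0 at this depth. With all UMIs, Slco1a4, Slco2b1, Abcb11 and Abcc2 did stand clear of 0, at 0.58, 0.50, -0.30 and -0.27. The position parts are relative ranks within each section, and the cholangiocyte markers went over the parts from 126 to 11.8 CPM with NCD and from 417 to 73.2 CPM with HFD, and without Spp1 from 18.4 to 2.58 and from 50.6 to 12.5 CPM. Without Spp1 the HFD list summed to 29.9 CPM over the section, of which Sprr1a gave 13.9 CPM. The part of the cholangiocyte markers in these gradients was not tested.

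**Figure D3:**
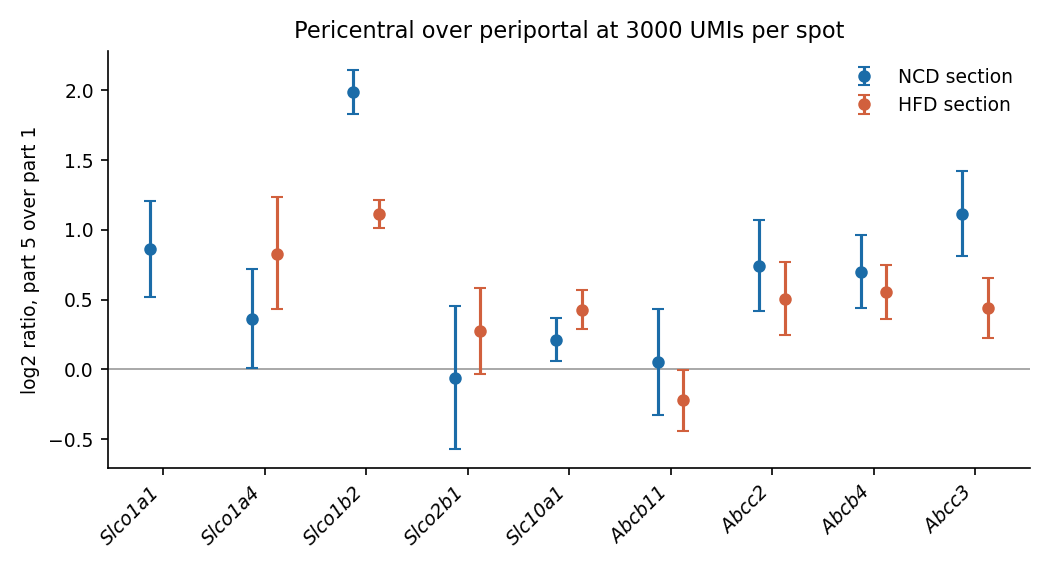
The log2 ratio of part 5 (pericentral) to part 1 (periportal) for each transporter after every spot was drawn down to 3000 UMIs, in the NCD (blue) and HFD (orange) sections, with exact conditional intervals at 95%. Slco1b2 (difference -0.87) and Abcc3 (-0.67) lie apart between the sections, and Slco1a1 has no HFD point because too few UMIs remained.

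Uptake over export was higher towards the central vein in both sections. In the NCD section the ratio was 2.33, 2.54, 2.71, 2.93 and 2.98 from part 1 to part 5, a log2 difference of 0.35 (0.26 to 0.45) between the ends. The intervals of neighbouring NCD parts overlapped except between parts 3 and 4. In the HFD section it was 1.69, 1.84, 1.97, 2.16 and 2.43, a log2 difference of 0.53 (0.48 to 0.57), and it was lower than the NCD ratio in every part. In the NCD section this direction rested on Slco1b2. Without it the ratio was lower in the NCD section towards the central vein, from 1.67 in part 1 to 1.28 in part 5, whereas in the HFD section it was still higher in part 5, at 0.831, than in part 1, at 0.770, with its lowest value of 0.721 in part 2. Also without it, every HFD part lay below every NCD part.

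**Figure D4:**
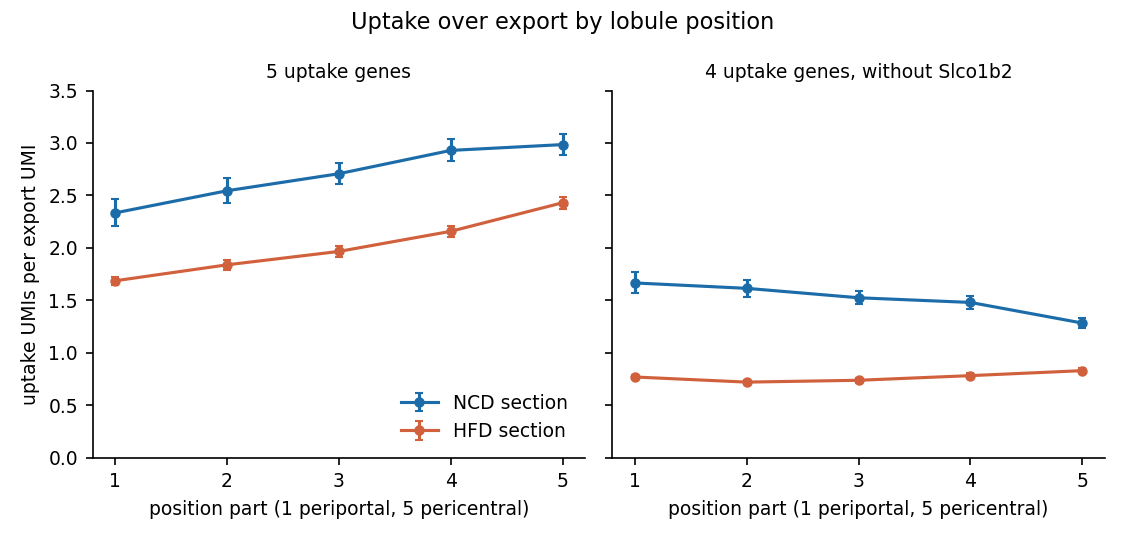
UMIs of the uptake genes per UMI of the 4 export genes over 5 parts of the lobule in the NCD (blue) and HFD (orange) sections, with all 5 uptake genes on the left and without Slco1b2 on the right. Bars are exact intervals at 95%. The HFD line lies below the NCD line in both panels, and the NCD ratios of 2.33 in part 1 and 2.98 in part 5 on the left are 1.67 and 1.28 on the right.

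Spots rich in other programmes were then compared with the remaining spots of the same section. The 10% of spots with the highest summed CPM of each list were taken, among spots with at least 3000 UMIs, which gave 354 HFD and 211 NCD spots for each list. Member UMIs in them were divided by the number expected from the remaining spots of the same position part, and the intervals cover the counts within the class only. Position was matched by part only, so differences of position within a part can remain in these values.

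Because Spp1 led the cholangiocyte list and Ctsd the macrophage list, the spots ranked by them are called Spp1-led and Ctsd-led. HFD values, and NCD values of Slc10a1 and Slco1a1, are also given for spots ranked without the leading gene. This alternative was chosen after seeing the data. Without Spp1 the HFD cholangiocyte list summed to 29.9 CPM, of which Sprr1a gave 13.9 CPM. In the NCD section Sprr1a had 1 UMI, and the list without Spp1 could not fill the class, whose last spot held 0 CPM of it. Slc10a1 lay below expectation beyond counting error in 3 of the 4 classes of HFD spots. Slco1a4 did so in the same 3, and Slco1b2 in all 4. For Slc10a1 the log2 ratio of observed to expected UMIs was -0.33 (-0.39 to -0.28) in Spp1-led spots and -0.21 (-0.26 to -0.15) in those ranked by the list without Spp1. It was -0.32 (-0.38 to -0.26) in Ctsd-led spots and -0.27 (-0.33 to -0.21) in those ranked without Ctsd, by Gpnmb, Trem2, Cd9, Mmp12 and Lpl. With NCD it was -0.19 (-0.28 to -0.10) in Spp1-led and -0.22 (-0.31 to -0.12) in Ctsd-led spots. Ranked without Spp1 or without Ctsd, the NCD values were -0.10 (-0.17 to -0.03) and -0.12 (-0.21 to -0.03).

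In Spp1-led HFD spots, 7 of 8 members lay below expectation beyond counting error, where 8.96% of 11380 genes did, with Slco1b2 at -0.26 and Abcb4 the exception at -0.05. Ranked without Spp1 it was 6 of 9, against 7.53%. In Ctsd-led HFD spots 3 of 8 did, against 6.72%, namely Slc10a1, Slco1a4 at -0.34 (-0.51 to -0.17) and Slco1b2 at -0.16. Ranked without Ctsd it was 5 of 8, against 6.65%, since Abcb11 at -0.18 and Abcc3 at -0.11 joined them. Genes with more UMIs pass this line more easily, and genes of hepatocytes share their spots, so these counts do not set the transporters apart from other hepatocyte genes.

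In HFD spots rich in acute phase genes (Saa1, Lcn2, Hp and others) 5 of 9 members lay below expectation, against 6.89% of genes. They were Slc10a1 at -0.22 (-0.27 to -0.16), Abcb11 at -0.17, Slco1a4 at -0.16, Slco1b2 at -0.14 and Slco2b1 at -0.11. In HFD spots rich in lipid droplet genes (Plin2, Cidec and others) Slc10a1 was at 0.03 (-0.02 to 0.08). There 1 member, Slco1b2 at -0.04, was below expectation, against 3.96% of genes, and 1, Abcb4 at 0.07, above it, against 8.19%. In the NCD section Slco1a1 was at -0.50 (-0.73 to -0.28) in Spp1-led spots, in which the red blood cell genes were at 1.00 and the Kupffer cell markers at -0.36, and at -0.00 in Ctsd-led spots. Ranked without Spp1 or without Ctsd, Slco1a1 was at -0.26 (-0.41 to -0.11) and -0.11 (-0.31 to 0.08).

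The hepatocyte markers were slightly below expectation in all 4 HFD classes, at -0.05 in Spp1-led, -0.12 in Ctsd-led, -0.04 in lipid droplet-rich and -0.06 in acute phase-rich spots. The NCD values were -0.07 in Spp1-led and -0.13 in Ctsd-led spots. The Kupffer cell markers were at 0.67 in Ctsd-led and -0.57 in Spp1-led HFD spots, and the red blood cell genes at 0.04 and -0.30. The part of these mixtures in the transporter values was not tested.

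**Figure D5:**
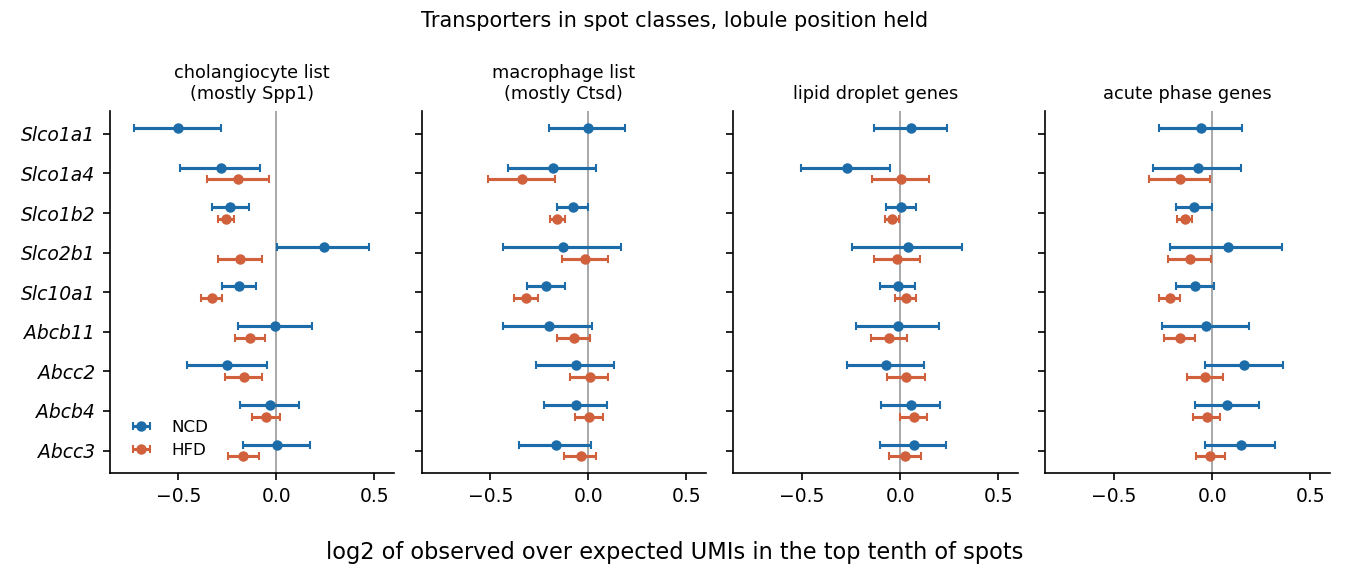
The log2 ratio of observed to expected UMIs of each transporter in the 10% of spots richest in each of 4 gene lists, with lobule position held, in the NCD (blue) and HFD (orange) sections. Bars are exact Poisson intervals at 95% of the counts in those spots, and Slco1a1 is shown for NCD only. Slc10a1 lies at -0.33 and -0.32 in HFD spots ranked by the cholangiocyte list (mostly Spp1) and the macrophage list (mostly Ctsd) and at 0.03 in the lipid droplet-rich ones. Slco1b2 lies below 0 in HFD spots of all 4 lists.

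Genes that work alongside the 9 members were described in the same way, by lists chosen with earlier results of these data known. By the 1.5-fold line 4.56% of the 10665 genes were lower and 23.9% higher, with a median log2 ratio of 0.23. Counts for each list below, the sex-biased ones included, are to be read beside these shares. Of 27 other bile acid, anion, cation and sterol transporters, 18 had at least 200 UMIs, and 0 were lower, 6 higher and 12 between by the 1.5-fold line, with a median log2 ratio of 0.33. Slc10a2, the sodium-dependent bile acid carrier of ileum and bile duct cells, went from 4.72 to 24.4 CPM (2.37, 2.12 to 2.63), beside the higher cholangiocyte markers given above, whose part in it was not tested. Abcb1a, a multidrug exporter, went from 1.89 to 5.38 CPM (1.51) and Slco3a1 from 2.48 to 5.05 (1.03). The lowest ratios were those of Abcg5 (-0.51) and Abcg8 (-0.50), the pair that exports cholesterol into bile, and of Slco2a1 (-0.47).

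Among 14 genes of bile acid synthesis, 4 were lower, 0 higher and 10 between, with a median of -0.20. Cyp7b1, of the alternative pathway, went from 190 to 36.2 CPM (-2.39), Cyp2c70, which makes muricholic acids in mice, from 218 to 118 (-0.89) and Slc27a5, which activates bile acids for conjugation, from 895 to 569 (-0.65). Cyp27a1 (-0.60) was the fourth. Cyp7a1, the rate-limiting enzyme of the classical pathway, lay at 46.4 and 34.1 CPM (-0.44). The highest were Hsd17b4 (0.43), Hsd3b7 (0.20) and Scp2 (0.20).

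Among 16 regulators, 1 was lower, 1 higher and 14 between, with a median of 0.16. Nr1h4, which encodes FXR, stood at 81.2 CPM in both sections, and its target Nr0b2 at 58.9 and 58.0 CPM. The lowest were Onecut1 (125 NCD and 94 HFD UMIs, -1.72), Nr5a2 (-0.45) and Klb (-0.20), and among the highest were Stat5b (18.7 to 28.1 CPM, 0.59) and Nfe2l2 (0.52). Stat5b, the 1 regulator counted as higher, lay on the 1.5-fold line itself. Of 10 genes for membrane scaffold and canalicular trafficking, 0 were lower and 3 higher, namely Msn (1.08), Ezr (0.78) and Pdzk1 (0.69), while Ceacam1 (-0.51), Rab11a (-0.29) and Slc9a3r1 (-0.23) were the lowest. Of 8 targets of the xenobiotic and lipid receptors, 5 were lower, led by Ces2a (-2.47), Cyp4a14 (-1.70) and Cyp3a11 (-1.69), and 1, Gsta1 (3.70), was higher.

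Slco1a1 belongs to the genes with a male bias in mouse liver, and others of that kind were looked at beside it. Of 10 male-biased genes, 8 were lower in the HFD section, 1 (Mup20, 0.80) was higher and 1 lay between. Hsd3b5 went from 61.4 to 0.0832 CPM (-9.53) and Cyp4a12b from 49.5 to 0.361 CPM (-7.10). Of 10 female-biased genes, 5 had enough UMIs and 4 of them were higher, with Cyp2b9 at 2.96 and 166 CPM (5.81) and Cyp2b13 at 0 and 1458 UMIs, at least 196-fold higher than 3 counts in the NCD section would give. Y-linked Ddx3y stood at 27.3 and 25.3 CPM and Eif2s3y at 30.7 and 30.0, and Xist had 1 and 2 UMIs, so both sections carried Y-linked transcripts at like levels.

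The genes most like each member were found by Pearson's r of log2 CPM over 10 points, the 5 parts of both sections, among 6409 genes with at least 1000 UMIs. The points share libraries and depth, and for members that differ widely between the diets r mostly follows that difference. Slco1a1 was most like Mup12 (r = 0.993), Gm29966 (0.990) and Hsd3b5 (0.990), and Slco1a4 like Mup16, Mup17 and Sucnr1 (0.996 to 0.992). Slco1b2 was most like Gsta3 (0.997), Lect2, itself a pericentral landmark, and Taldo1. Slc10a1 was most like Bnip3 (0.991), Sucnr1 and Papss2, and Slco2b1 like Elovl5 (0.996), Ebpl and Elovl6. Among the genes most like Abcb11 were Serpina10 (0.987) and Ergic1 (0.986). Abcc2 was most like Aqp9 (0.990), Slc25a21 and Gstk1, Abcb4 like Slc29a1 (0.993), Gstm1 and Mme, and Abcc3 like Ppcs (0.995), Pomp and Taldo1.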

How the data were processed

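The authors deposited raw UMI counts, which were used for 1 NCD and 1 HFD section. Per the labels and file headers they were made with Space Ranger 1.3.1 on mm10, with spots over tissue kept in the filtered tables. The unfiltered tables held the same counts for those spots and gave the spots off tissue. The transporters, gene lists and comparisons were chosen with earlier results of these data known.

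UMIs were pooled over spots and divided by the total (CPM). Levels have exact Poisson intervals, ratios exact conditional binomial intervals, shares exact Clopper-Pearson intervals, and differences of log2 ratios log-normal intervals. Intervals cover counting error only, and no test between diets was possible with 1 section each. Floors are 3 counts of the total. A gene needed 200 UMIs over both sections for diet ratios and 100 within a section for gradients. Spots with at least 1000 UMIs were ranked by landmark genes, and drawing down used 3000 UMIs (seed 1). A spot can hold several cells, so no doublets were removed and no cell type was assigned. Genes named were the 9 members, the 3 highest and 3 lowest ratios of each list on transport, synthesis, regulation and scaffold, and the 3 genes most like each member; a few of these and 1 of the 3 motifs searched are not reported here. Genes named beyond that rule (Slco1a5, Slco1a6, Cyp27a1, Cyp7a1, Nr1h4, Nr0b2 and those of the receptor target, sex-biased and sex check lists) were chosen after their values were seen. Alternatives changed the weighting of spots, depth, total, scaling, free RNA, landmarks and number of parts. Python 3.11.15, numpy 2.4.6, scipy 1.17.1 and pandas 2.3.3 were used.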

Additional observations from a re-analysis of the deposited data

Results flagged for a closer look

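UMIs of the 9 transporters were also found in spots that lay off the tissue, which the comparisons do not use. They summed to 2172 CPM (14922 UMIs) on the NCD slide, whose 1300 such spots held 19.1% of all its UMIs, and to 1474 CPM (3209 UMIs) on the HFD slide, whose 1398 such spots held 2.93%. Both are far above the limits of 0.437 and 1.38 CPM that a count of 0 allows. Spots off tissue held a median of 3383 UMIs on the NCD slide, against 4188 over tissue. On the HFD slide they held 1175.5, against 18549. Off the NCD tissue, summed uptake was 1530 CPM and summed export 642 CPM, near the 1608 and 583 CPM over tissue. On the HFD slide these were 946 and 528 CPM, against 1371 and 683. The share of such off-tissue UMIs within the tissue spots was not tested beyond the subtraction given with the processing alternatives. This limit holds for every NCD level and gradient.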

How the results depend on the processing

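The log2 ratios of Slco1a1, Slco1a4, Slc10a1, Slco2b1 and Abcb11 kept their sign under all 12 or 13 alternatives, with ranges of -10.08 to -8.27, -1.35 to -0.78, -0.77 to -0.29, 0.32 to 0.84 and 0.39 to 0.85. Those of Slco1b2, Abcc2, Abcb4 and Abcc3 crossed 0, and none of these 4 exceeded 0.89 in size.

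Summed uptake in HFD against NCD (-0.23 pooled) was -0.024 with CPM averaged per spot, -0.25 in spots with at least 3000 UMIs, -0.19 drawn down to 3000 UMIs, -0.46 centred on the median gene, -0.43 per UMI of hepatocyte markers, -0.19 with the profile of spots off tissue subtracted at 10% and -0.71 without Slco1b2. Summed export (0.23) reversed to -0.00 (-0.0046) centred on the median gene, and was 0.031 per UMI of hepatocyte markers and 0.28 with the off-tissue profile subtracted. Uptake over export (-0.46) was -0.25 averaged per spot and -0.94 without Slco1b2. The log2 change of uptake over export from part 1 to part 5 in the HFD section (0.53) was 0.45 with 3 parts, 0.45 with the second landmarks and 0.11 without Slco1b2. In the NCD section (0.35) it was 0.45 with no minimum of UMIs per spot and reversed to -0.38 without Slco1b2. Apart from what the construction of these settings shows, the cause was not tested. The other 32 of these section and position values stayed within the counting interval or, for the number of members lower, within 1.5 times. Leaving out Slco1b2 or Abcc3, ranking spots without Spp1 or Ctsd and the ratios within position parts were chosen after seeing the data.

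No paired analysis was possible because each diet has 1 section. Depth limits the NCD gradients, as that section keeps 2107 spots at 3000 UMIs.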
